A study of Citrus maxima and Citrus sinensis with 8 samples.

Results

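The genes described here are those whose deposited description names STOP1 (SENSITIVE TO PROTON RHIZOTOXICITY 1) or ART1, zinc finger regulators of acid and aluminum (Al) tolerance. Among 30151 genes, 3 had such a description, all of them through the words SENSITIVE TO PROTON RHIZOTOXICITY, and the names STOP1 and ART1 were found in 0 descriptions. The 3 genes were Cs3g22510, which belongs to the reference annotation of C. sinensis, and XLOC_021890 and XLOC_021891, which are among the 496 genes that the authors assembled from the reads. Only 43.0% of genes had a description, so a copy without one was not found by this rule.

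Root tips were taken from seedlings of C. sinensis cultivar Xuegan, labelled Al-tolerant, and of C. grandis cultivar Shatian pummelo, labelled Al-intolerant. The plants stood in sand and received acid nutrient solution with 0 mM (control) or 1 mM Al chloride (+Al) for 18 weeks. The control and +Al solutions were set to the same low pH, so the control roots met acid too, and acid was not varied. Each of the 4 groups had 2 libraries, and each library mixed roots of 5 seedlings. The p-values below therefore measure the spread between such pools, and the libraries hold whole root tips, in which more cells of a type and more RNA per cell cannot be told apart. Reads of both species were mapped to the C. sinensis genome.

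In plants, STOP1 is a C2H2 zinc finger transcription factor of the nucleus. In Arabidopsis it is needed for growth of roots in acid and in Al, and it turns on genes for ALMT1 (a malate channel), MATE (a citrate carrier) and ALS3 (a half-size ABC protein), while its rice counterpart ART1 acts on Nrat1, STAR1, STAR2 and FRDL4. In Arabidopsis the amount of STOP1 protein is set largely after transcription, and the genome holds a close homologue, STOP2. Which of the citrus genes, if any, is the counterpart of STOP2 was not determined here.

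Cs3g22510 was described as protein SENSITIVE TO PROTON RHIZOTOXICITY 1 isoform 1, after a grape (Vitis vinifera) protein. Its gene ontology terms included response to pH and response to metal ion. XLOC_021890 was described as SENSITIVE TO PROTON RHIZOTOXICITY 1-like after a strawberry (Fragaria vesca) protein, and XLOC_021891 likewise after a grape protein. Neither assembled gene carried gene ontology terms. Whether the assembled genes are separate copies, parts of 1 gene or antisense to another gene was not determined here. Close copies can share reads, and no source used here says whether counting used the strand, so the separate values of the assembled genes are uncertain and their sum is given as well.

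Values were FPKM, a fragment number divided by transcript length and by the mapped fragments of the library. They summed to between 713378 and 859570 per library, with 17594 to 18562 genes at 1 FPKM or more. The depth read from the steps of low values was 0.706 to 1 of that of C. sinensis control 1, lowest in C. grandis +Al 1. That library was also shifted against its replicate, with a median log2 difference over genes of -0.38, where the other groups had -0.02 to 0.13. The 3 Casparian strip genes, which mark the endodermis of roots, were at 5.57 to 34.2 FPKM in all libraries. The 7 root tip markers summed to 103 to 149 FPKM per library. At an unadjusted limma p under 0.05, 3 of them were higher and 4 lower in +Al than in control C. sinensis roots. In C. grandis 0 were higher and 1 lower. The 37 leaf and photosynthesis genes summed to 154 to 298 FPKM, led by XLOC_024913, described as photosystem II 32 kDa protein, at 55.6 to 126 FPKM. Of these 37, 4 were listed at 0 in all libraries, and the 7 genes for chlorophyll a-b binding proteins were at 0 to 5.84 FPKM. The part of these root and leaf marker genes in the results below was not tested.

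Cs3g22510 was the abundant member in the control roots of both species, and its response to Al was small and not called. Its FPKM were 53.4 and 55.9 in C. sinensis control roots and 48.1 and 47.6 in +Al roots. In C. grandis they were 51.0 and 46.6 in control roots and 34.9 and 50.7 in +Al roots. Both +Al libraries of C. sinensis lay below both control libraries, while in C. grandis the groups overlapped, the low value being that of the shifted library.

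The difference in C. sinensis came to a log2 fold change (FPKM + 0.1) of -0.19 (SE 0.058, 95% interval -0.34 to -0.044) for Cs3g22510, with an adjusted p of 0.053 by limma. Without overlap in either direction stood 70.8% of the genes tested in C. sinensis, so the separation of the libraries is no result about this gene. In C. grandis the log2 fold change of Cs3g22510 was -0.21 (SE 0.26, 95% interval -0.74 to 0.32, adjusted p = 0.68). The response did not differ detectably between the species, the difference of log2 fold changes for Cs3g22510 being -0.02 with a 95% interval of -0.60 to 0.56 (adjusted p = 0.96). The FPKM of Cs3g22510 in C. grandis were also rescaled by the median ratio of all genes. They were then 49.1 and 50.3 in control roots and 41.1 and 44.9 in +Al roots. A fit of rescaled values gave a log2 fold change of -0.20 (SE 0.11, limma adjusted p = 0.24), not called.

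XLOC_021890 was upregulated by Al in both species. Its FPKM were 0.955 and 0.904 in C. sinensis control roots and 4.29 and 4.92 in +Al roots. In C. grandis they were 2.72 and 2.59 in control roots and 25.9 and 32.4 in +Al roots. Both +Al libraries of each species lay above both control libraries, as did 35.6% of genes tested in C. sinensis, with 24.3% in C. grandis. The C. grandis +Al libraries stood far above the other 6. The ratio of mean FPKM was 4.95 in C. sinensis and 10.99 in C. grandis. On the log2 scale the fold change of XLOC_021890 was 2.19 in C. sinensis (SE 0.22, limma adjusted p = 0.0016) and 3.40 in C. grandis (SE 0.32, adjusted p = 1.1e-10).

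XLOC_021891 had the larger upregulation in fold in both species. Its FPKM were 0.210 and 0.285 in C. sinensis control roots and 6.05 and 6.13 in +Al roots. In C. grandis they were 0.938 and 0.726 in control roots and 34.0 and 45.3 in +Al roots. The groups did not overlap in either species, and all 4 control libraries were under 1 FPKM. The ratio of mean FPKM was 24.6 in C. sinensis, with single +Al libraries at 21.2 to 29.2 times single control libraries, and 47.7 in C. grandis, with 36.3 to 62.4 times. The log2 fold change of XLOC_021891 was 4.16 in C. sinensis (SE 0.30, limma adjusted p = 0.00052) and 5.41 in C. grandis (SE 0.35, adjusted p = 3.4e-15). With a pseudocount of 1 in place of 0.1 these fold changes were 2.51 and 4.46, still called.

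Calls needed an adjusted p no higher than 0.05 together with a rise or fall of 1 or more on the log2 scale. So 2 of the 3 members were called higher in each species, where 4.46% of the genes tested in C. sinensis and 5.2% in C. grandis were. The count alone carries little, since a gene needed a mean of 1 FPKM in a group to be tested. XLOC_021891 passed in both species and XLOC_021890 in C. sinensis only through the +Al group, so there they had to be higher in +Al roots. With no such filter both remained called, with an adjusted p of 0.0033 for XLOC_021890 and 0.0012 for XLOC_021891 in C. sinensis. The values for C. grandis were 0.00023 and 4.0e-05. Among all tested fold changes from the highest down, XLOC_021891 had rank 45 of 19152 in C. sinensis and rank 24 of 18677 in C. grandis, and XLOC_021890 had ranks 210 and 147. Limma shared the spread among genes far more in C. grandis (prior degrees of freedom 36.2 against 3.50 in C. sinensis), so the smaller p-values there are not stronger evidence by that margin.

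**Figure D1:**
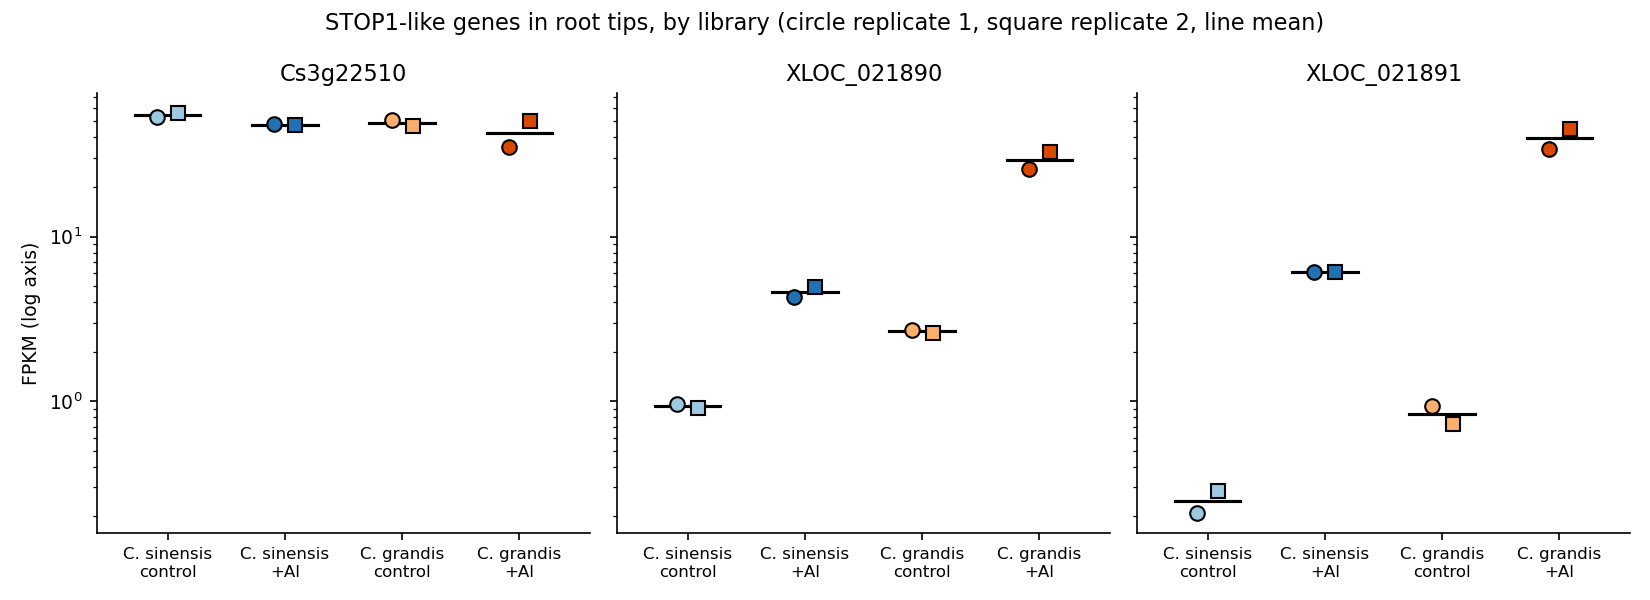
FPKM of the 3 genes in each of the 8 libraries, on a log10 axis, with circles for replicate 1, squares for replicate 2 and lines for group means. Cs3g22510 stays between 34.9 and 55.9 FPKM, while XLOC_021890 and XLOC_021891 climb from at most 2.72 and 0.938 FPKM in control roots to as much as 32.4 and 45.3 in +Al C. grandis roots.

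The assembled genes also stood higher in C. grandis roots than in those of C. sinensis. In control roots XLOC_021890 averaged 2.65 ± 0.0952 FPKM (SD, n = 2) in C. grandis and 0.930 ± 0.0365 (n = 2) in C. sinensis, without overlap, as for 31.4% of genes higher in C. grandis. The log2 difference between the species was 1.42 for XLOC_021890 (SE 0.21, limma adjusted p = 0.0021), where 6.49% of genes were called higher in C. grandis control roots. XLOC_021890 passed the filter of 1 FPKM there only through C. grandis, so once tested it had to be higher in that species. With no filter the log2 difference of XLOC_021890 was again 1.42 (SE 0.21, adjusted p = 0.0038). Since a pseudocount of 1 brought it to 0.92, the call in control roots depends on how low values are treated. XLOC_021891 was not tested in control roots because it averaged less than 1 FPKM in both species (0.248 ± 0.0531 and 0.832 ± 0.149, SD, n = 2), but with no filter its log2 difference was also 1.42 (SE 0.27, adjusted p = 0.010).

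In +Al roots the distance was wider. XLOC_021890 averaged 29.1 ± 4.65 FPKM (SD, n = 2) in C. grandis against 4.61 ± 0.443 in C. sinensis, which makes a log2 difference of 2.63 (SE 0.21, limma adjusted p = 4.0e-05). XLOC_021891 averaged 39.6 ± 7.98 and 6.09 ± 0.0569 FPKM (SD, n = 2), a log2 difference of 2.67 (SE 0.27, adjusted p = 0.00011). In these roots 12.7% of genes were called higher in C. grandis, and 31.7% were higher there without overlap. Cs3g22510 differed little between the species, with log2 differences of -0.16 in control roots (95% interval -0.57 to 0.24) and -0.19 in +Al roots (95% interval -0.59 to 0.22). Reads of C. grandis were counted only where they aligned to the genome of the other species, and how far that moves the level of a single gene was not tested.

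The responses themselves were then compared, by subtracting the C. sinensis log2 fold change from the C. grandis one in a fit of all 8 libraries, with calls by the adjusted p alone. For XLOC_021890 the difference was 1.21 (SE 0.30, 95% interval 0.52 to 1.91, limma adjusted p = 0.030), so its rise was larger in C. grandis, as for 6.27% of genes (17.6% differed in either direction). The call was lost without any single one of the 4 C. sinensis or the 2 C. grandis control libraries, and over all 8 such fits the difference was 1.05 to 1.37 with adjusted p of 0.013 to 0.13. With the replicate number as a block its adjusted p was 0.056. For XLOC_021891 the difference was of like size, 1.25 (SE 0.37, 95% interval 0.38 to 2.11), and missed the threshold at an adjusted p of 0.057. It passed after rescaling by the median ratio, at 1.26 with an adjusted p of 0.013.

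**Figure D2:**
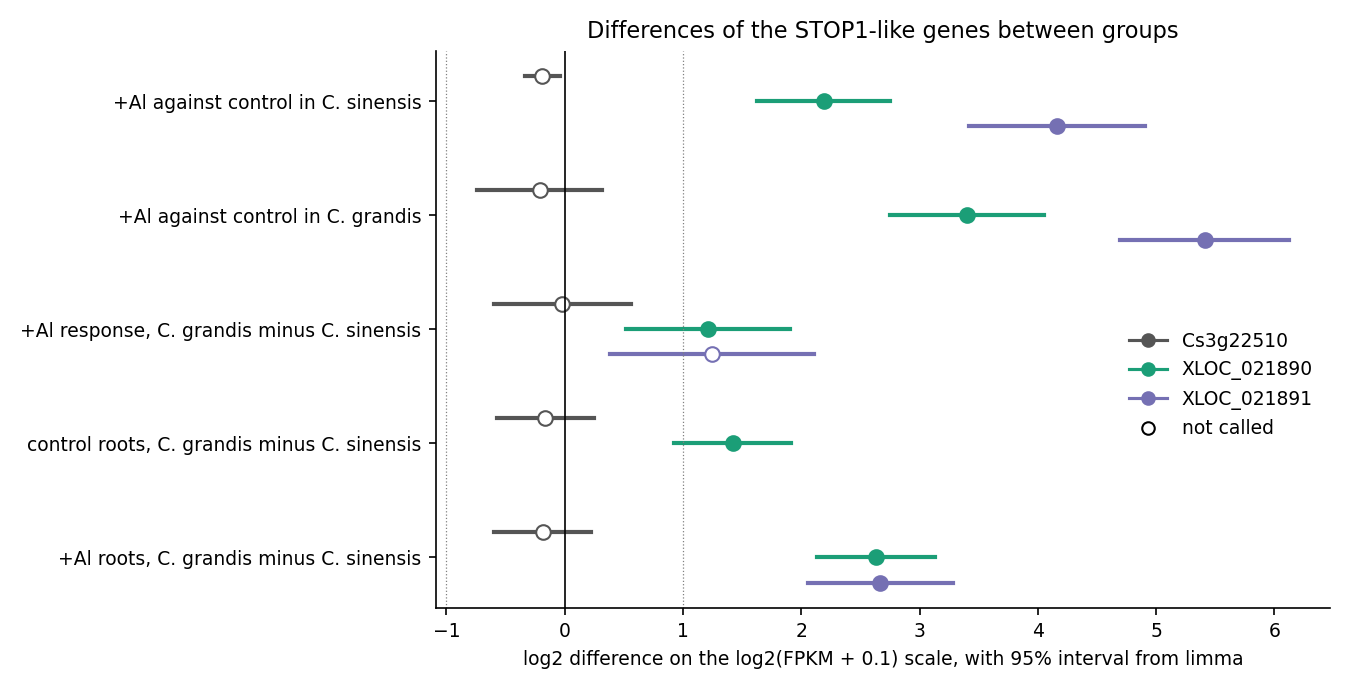
Log2 differences of the 3 genes with 95% intervals from limma for the response to Al in each species, the difference of the responses and the difference between species in control and in +Al roots, with open points for differences that were not called and dotted lines at the fold limit. XLOC_021890 and XLOC_021891 lie right of 0 in all comparisons in which they were tested, and the intervals of Cs3g22510 include 0 except in C. sinensis (-0.34 to -0.044).

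Because levels in FPKM are per length, the 3 genes can be added and set against each other. In the control roots the assembled genes gave a small part of the summed FPKM, 2.14% and 2.08% in the C. sinensis libraries and 6.70% and 6.63% in the C. grandis libraries. In the +Al roots they gave 17.7% and 18.8% in C. sinensis, but 63.2% and 60.5% in C. grandis. Singly, each assembled gene stayed below Cs3g22510 in every library, so these shares hold only if the assembled genes are separate genes. The sum of all 3 genes stood at 54.5 and 57.1 FPKM in C. sinensis control roots and 58.4 and 58.7 in +Al roots, and in C. grandis at 54.6 and 49.95 FPKM in control roots and 94.8 and 128 in +Al roots. The +Al C. grandis libraries stood clear of the other 6, which lay between 49.95 and 58.7 FPKM. This sum of all 3 was not tested.

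**Figure D3:**
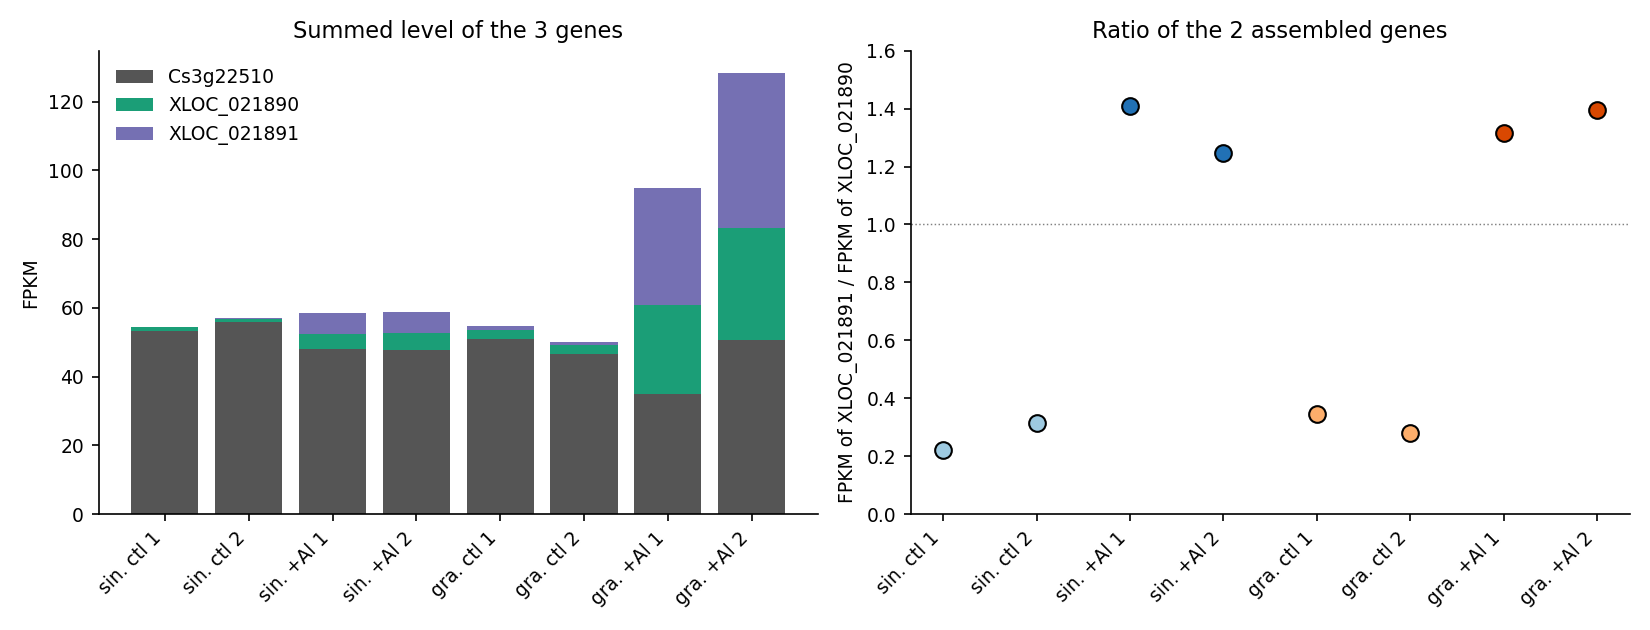
Summed FPKM of the 3 genes in each library, stacked by gene from 0. Cs3g22510 fills nearly the whole bar in control roots, and the assembled genes fill 60.5% and 63.2% of the bars of +Al C. grandis roots.

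The order of the assembled genes changed with Al. In control roots XLOC_021891 was the lower one in all 4 libraries, at 0.220 and 0.316 of the FPKM of XLOC_021890 in C. sinensis, and at 0.345 and 0.281 of it in C. grandis. In +Al roots it was the higher one in all 4 libraries, at 1.41 and 1.25 times in C. sinensis, and at 1.32 and 1.40 times in C. grandis. The log2 ratio moved by 2.33 in C. sinensis and 2.12 in C. grandis, with a two-sided p of 0.056 in an exact permutation test within species, the smallest that its 36 arrangements allow. The control values of XLOC_021891 are low, and their counting error was not computed because gene lengths were not used here.

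The assembled genes were also tested together, since they may share reads. The sum of FPKM depends on the length given to each. Taken as 1 row, the sum of XLOC_021890 and XLOC_021891 rose from 1.17 and 1.19 FPKM to 10.3 and 11.1 FPKM in C. sinensis, a log2 fold change of 3.08 (SE 0.16, limma adjusted p = 0.00024). In C. grandis it rose from 3.66 and 3.31 FPKM to 59.9 and 77.7 FPKM, a log2 fold change of 4.25 (SE 0.30, adjusted p = 2.7e-14). The rise of this sum was larger in C. grandis by 1.17 on the log2 scale (95% interval 0.55 to 1.80, adjusted p = 0.023).

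Other C2H2 zinc finger genes, which share the DNA-binding fold, gave no such rise. Descriptions named 23 of them. Upregulated by limma were 0 of the 18 tested in C. sinensis and 0 of the 17 in C. grandis, with 2 downregulated in each. Over all genes tested, 4.46% and 5.2% were upregulated and 4.06% and 7.25% downregulated, so the counts of 0 alone carry little. At an unadjusted p under 0.05 and with no fold limit, 2 C2H2 genes were higher and 8 lower in C. sinensis. In C. grandis 0 C2H2 genes were higher and 5 lower. Their log2 fold changes ran from -1.25 to 0.96 in C. sinensis and from -1.50 to 0.54 in C. grandis, with medians of -0.20 and -0.26 beside -0.0019 and -0.014 over all genes tested. By mean FPKM among these 26 genes, XLOC_021891 moved from rank 23 in control to rank 17 in +Al C. sinensis roots and from rank 20 to rank 7 in C. grandis. XLOC_021890 moved from rank 20 to 18 and from rank 17 to 8, and Cs3g22510 stayed between ranks 4 and 6.

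The C2H2 genes that fell included Cs3g15900, a Cys2/His2-type protein and the most abundant of the class, from 858 to 307 FPKM in C. grandis (log2 -1.50, limma adjusted p = 7.0e-08). The ZAT10-like gene Cs8g04280, whose Arabidopsis relative is a repressor in stress responses, fell from 713 to 289 FPKM there (log2 -1.32, adjusted p = 1.3e-06). In C. sinensis Cs5g30700 (indeterminate-domain 12) fell by 1.25 on the log2 scale and Cs5g32710 (indeterminate-domain 2) fell by 1.10, with adjusted p of 0.0070 and 0.00064. Among assembled genes, 30 of 417 tested were upregulated and 43 downregulated in C. sinensis, with 58 and 51 of 398 in C. grandis. Over all genes tested, 4.46% and 5.2% were upregulated in the 2 species, and 4.06% and 7.25% downregulated. XLOC_021891 had the rank 5 fold change among the assembled genes in C. sinensis and rank 4 in C. grandis.

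Genes with a profile like that of each member were then sought among 9905 described genes, by the root mean square difference of log2(FPKM + 0.1) over the 8 libraries, each gene centred on its own mean. Nearest to Cs3g22510 were genes with small changes, led by Cs2g30170, an RBP47B'-like RNA-binding protein (0.034), Cs8g16700 for 4-hydroxy-3-methylbut-2-en-1-yl diphosphate synthase, an enzyme of isoprenoid synthesis in plastids (0.040), Cs2g06340, an RNA polymerase II C-terminal domain phosphatase (0.049), Cs3g26400 for VPS35 B of the retromer (0.050) and Cs5g01810 for an ABC protein of the F family (0.051).

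Nearest to XLOC_021890 was Cs8g16920, an MLO-like gene (0.20), but that gene was itself at most 3.89 FPKM in a group mean. Next came Cs4g17870 for SPX domain gene 2 (0.30), whose Arabidopsis relatives sense phosphate, with group means of 35.7, 105, 61.6 and 679 FPKM in the order C. sinensis control, C. sinensis +Al, C. grandis control and C. grandis +Al. The others were the polyprotein gene orange1.1t02368 (0.46), the phosphatase gene Cs1g18540 (0.46; 45.5, 177, 54.2 and 1092 FPKM) and the oligopeptide transporter gene Cs2g01740 (0.50).

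Nearest to XLOC_021891 was Cs7g01770 (0.68) for FRD3b, a MATE carrier of the citrate-exporting kind, followed by Cs4g16770 for sulfate transporter 3,5 (0.77), the miraculin-like Cs5g16770 (0.78), Cs8g16920 (0.84) and Cs1g18540 (0.93). The assembled genes were not each other's nearest: XLOC_021890 had rank 9 for XLOC_021891, and XLOC_021891 had rank 84 for XLOC_021890, at a distance of 1.00. All these distances compare 8 libraries of 4 groups and were not tested.

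**Figure D4:**
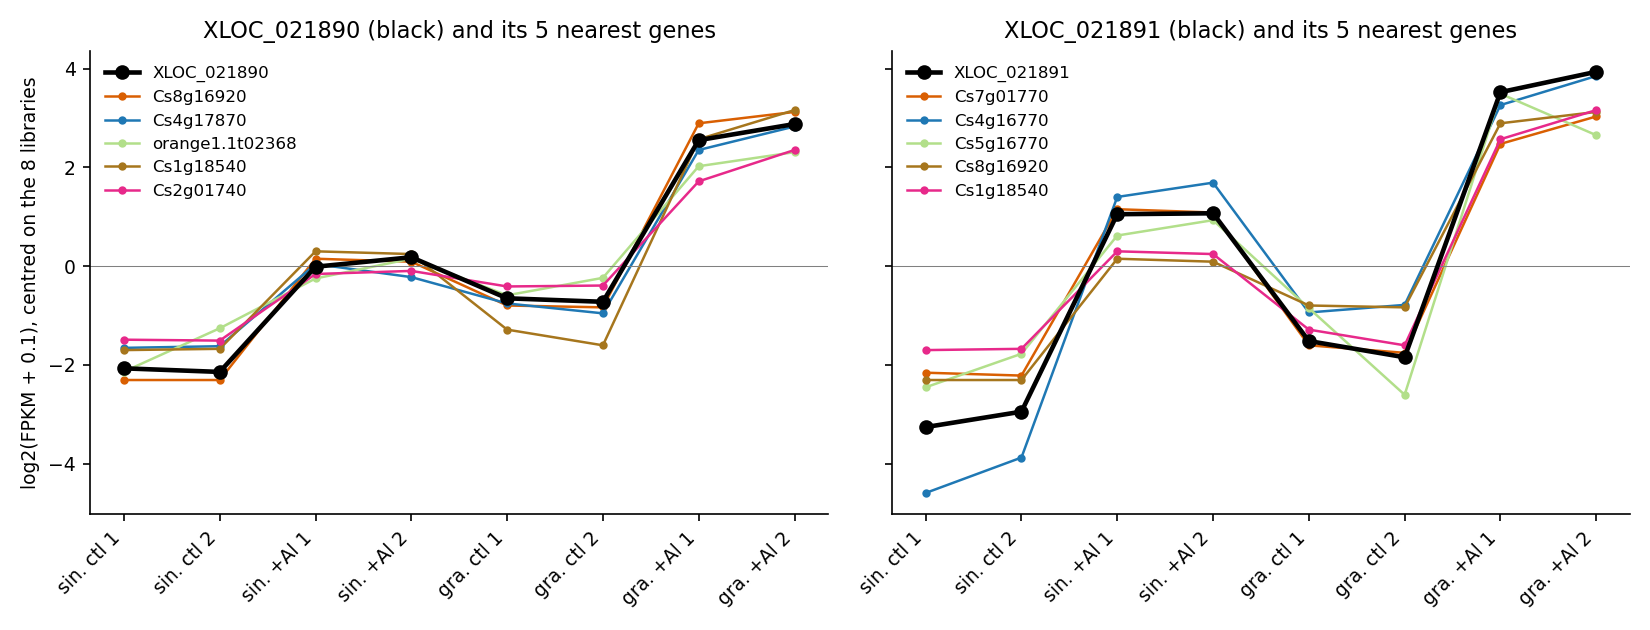
Centred log2(FPKM + 0.1) of the assembled genes (black) and of the 5 described genes nearest to each, across the 8 libraries (sin., C. sinensis; gra., C. grandis; ctl, control). XLOC_021890 and SPX domain gene 2 (Cs4g17870) run close together (0.30), and XLOC_021891 and FRD3b (Cs7g01770) run less close (0.68), all of them highest in the +Al C. grandis libraries.

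Families that hold STOP1 or ART1 targets in Arabidopsis or rice, and regulators upstream of them, were followed through 11 lists of 131 genes matched by description. In C. sinensis 13 of 107 tested were upregulated and 4 downregulated, together 15.9% where 8.53% of all genes tested were called. In C. grandis 9 of 104 were upregulated and 7 downregulated, together 15.4% against 12.5%. Upregulated were 4.46% of all genes tested in C. sinensis, with 5.2% in C. grandis, and downregulated were 4.06% and 7.25%. The lists were chosen with earlier results of these data known, so the shares cannot show an excess. The median log2 fold change of the list genes was 0.03 in C. sinensis roots, while C. grandis had 0.16. Most genes of these lists thus passed no call.

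Of the ALMT malate channels, 2 were upregulated and 1 downregulated of 6 tested in C. sinensis, and 1 and 1 of 4 in C. grandis. Cs6g12780 was upregulated in both, from 0.345 and 0.0827 FPKM to 21.7 and 19.1 in C. sinensis (log2 6.17, limma adjusted p = 0.00052) and from 0 and 0.191 FPKM to 28.7 and 40.3 in C. grandis (log2 7.64, adjusted p = 3.4e-15). Its control values are near the lower end of the scale, so these fold changes depend on the pseudocount. Cs6g12750 was upregulated in C. sinensis, from a mean of 0.191 to 1.69 FPKM, and was tested there only through the +Al group. In C. grandis it averaged under 1 FPKM in both groups and was not tested. Cs5g01700 (ALMT 10) was downregulated in C. sinensis, from 20.7 ± 2.34 to 6.66 ± 0.760 FPKM (SD, n = 2), and Cs6g12800 (ALMT 2) in C. grandis, from 4.77 ± 1.42 to 1.42 ± 0.548 FPKM.

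Of the MATE and FRD3 carriers, a large family of citrate and drug exporters, 3 of 33 tested were upregulated in C. sinensis and 1 of 33 in C. grandis, with 1 downregulated in each. FRD3b (Cs7g01770) stood out, from 26.1 and 25.1 FPKM to 260 and 248 in C. sinensis and from 38.4 and 34.5 to 650 and 956 in C. grandis. Its log2 fold changes were 3.31 and 4.43 (limma adjusted p = 4.3e-05 and 1.3e-18). Cs1g26350 rose only to a mean of 4.69 FPKM in C. sinensis, and Cs3g16650 fell there from 20.0 to 9.41 FPKM. Cs9g16870 fell in C. grandis from 13.4 to 5.59 FPKM.

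The ABC gene Cs4g04420 (ABCI17), of the family of rice STAR1, was upregulated in both species, from 32.2 and 32.2 FPKM to 117 and 114 in C. sinensis (log2 1.84, limma adjusted p = 9.1e-05) and from 28.7 and 29.7 FPKM to 117 and 170 in C. grandis (log2 2.27, adjusted p = 4.0e-09). Of 4 Nramp metal carriers, the family of the rice Al carrier Nrat1, 0 were called in C. sinensis (3 at an unadjusted p under 0.05). The Nramp6 genes XLOC_020550 and XLOC_029822 rose there from 17.2 to 21.2 and from 24.1 to 33.0 FPKM. These rises were under the fold limit (limma adjusted p = 0.032 and 0.0061). Both genes were downregulated in C. grandis, from 11.99 to 6.05 and from 18.4 to 9.10 FPKM. Cs3g19960 had 86.2 and 159 FPKM in C. grandis control and +Al roots (log2 0.88, adjusted p = 0.0043, under the fold limit), and Cs3g15660 had 15.3 and 15.0 FPKM. Of 16 magnesium transporters, only Cs5g30300 (MRS2-2) was called, falling by 1.55 on the log2 scale in C. sinensis.

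The polygalacturonase-inhibiting gene Cs7g01980, of a family that protects cell wall pectin, had 54.9 and 77.6 FPKM in C. sinensis control and +Al roots (log2 0.50, limma adjusted p = 0.0020, under the fold limit) and fell from 43.0 to 15.0 FPKM in C. grandis (log2 -1.55, adjusted p = 8.9e-05). Calcineurin B-like proteins and their kinases, which regulate ion carriers, had 2 of 17 upregulated in C. sinensis, 3 of 17 in C. grandis and 0 downregulated in either, where 3 and 2 were lower at an unadjusted p under 0.05. CIPK22 (Cs6g09730) rose in C. sinensis from 94.5 to 201 FPKM, and in C. grandis from 96.6 to 258, CIPK9 (orange1.1t00555) from 0.465 to 1.73 and from 4.204 to 9.08, and CBL10 (Cs1g18400) from 12.1 to 33.9 in C. grandis.

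Among 7 genes of the GABA shunt, glutamate dehydrogenase and malic enzyme, metabolism that consumes protons, NADP-malic enzyme 4 (Cs4g19200) was upregulated in C. sinensis, from 65.1 ± 0.844 to 158 ± 1.36 FPKM (SD, n = 2). In C. grandis it had 62.9 ± 3.37 and 57.1 ± 2.34 FPKM, and the responses differed by -1.42 on the log2 scale (limma adjusted p = 0.0012). It was the only gene of the 7 called in a species, so it does not stand for the list. At an unadjusted p under 0.05, 4 of the 7 were higher and 3 lower in C. sinensis, with 0 in either direction in C. grandis.

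Of the potassium, sulfate and nitrate transporters, 4 of 11 were upregulated in C. sinensis, and 3 of 10 in C. grandis with 1 downregulated. Sulfate transporter 3,5 (Cs4g16770) rose from 0.146 and 0.305 FPKM to 15.6 and 19.1 in C. sinensis and from 3.002 and 3.35 to 56.9 and 85.5 in C. grandis, with log2 fold changes of 5.78 and 4.42 (limma adjusted p = 0.00026 and 1.6e-14). NRT1.1 (Cs5g09050), a nitrate carrier that moves protons with nitrate, rose in C. sinensis from 19.1 to 38.7 FPKM and had 15.8 and 31.1 FPKM in C. grandis (log2 0.96, adjusted p = 0.014, under the fold limit). The sulfate transporter 3.1-like gene Cs5g30850 rose in C. sinensis from 13.8 to 33.8 FPKM and fell in C. grandis from 7.58 to 2.62. Potassium transporter 11 (Cs2g11370) rose in C. grandis from 40.1 to 110 FPKM.

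Genes that act on STOP1 in Arabidopsis, matched as THO complex subunits, a SUMO protease and MAPKKK1-like kinases, had 0 of 8 upregulated and 1 downregulated in each species by limma. At an unadjusted p under 0.05, 2 were higher in C. sinensis and 0 in C. grandis. Cs1g22540, a MAPKKK1-like gene, fell in C. grandis from 118 ± 4.36 to 17.9 ± 6.50 FPKM (SD, n = 2), which is -2.75 on the log2 scale (limma adjusted p = 2.2e-10), and had 77.7 and 94.2 FPKM in C. sinensis control and +Al roots (log2 0.28, under the fold limit). A relative, orange1.1t03798, fell in C. sinensis from 2.90 to 1.12 FPKM. The 3 CAMTA genes (Cs9g02510, XLOC_011884 and orange1.1t01821), calmodulin-binding activators of which an Arabidopsis member acts on ALMT1, were called in neither species, with log2 fold changes of -0.78 to 0.62. In C. sinensis Cs9g02510 and orange1.1t01821 were lower with limma adjusted p of 0.049 and 0.038, under the fold limit.

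**Figure D5:**
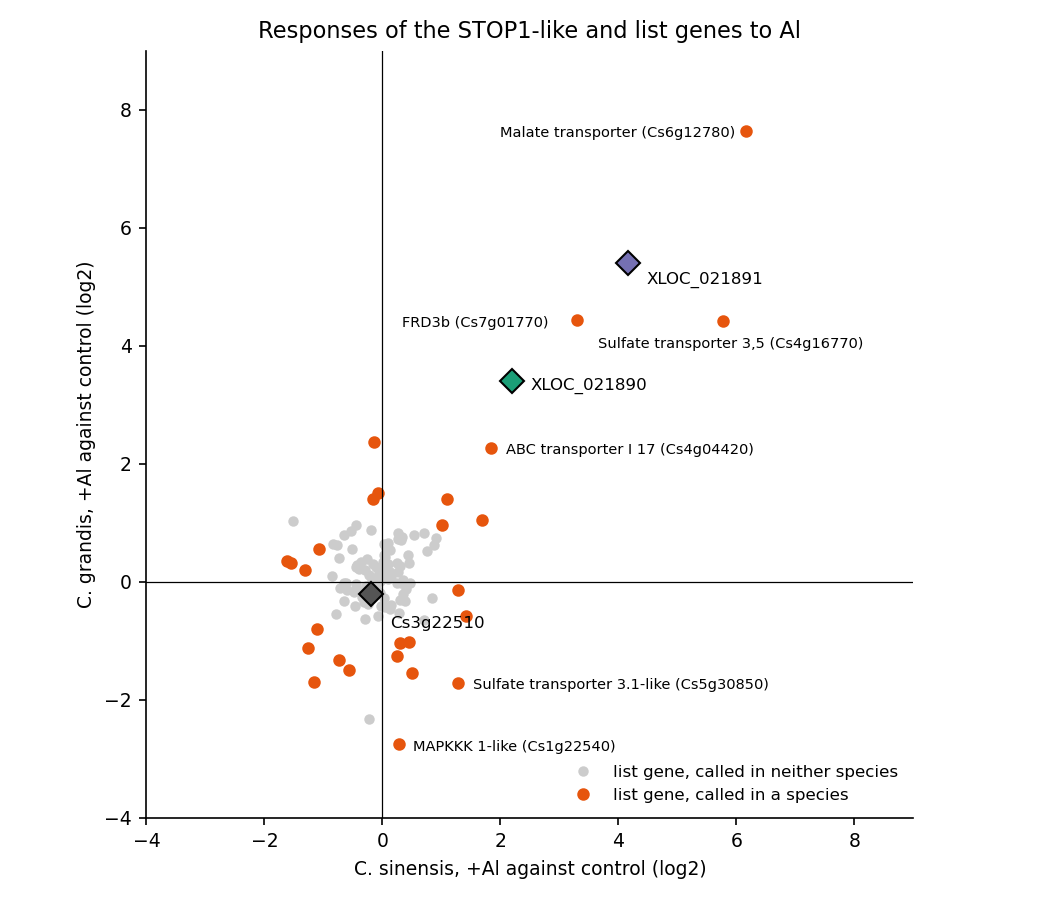
Log2 fold change to Al in C. grandis (y axis) against C. sinensis (x axis) for the genes of these lists and the other C2H2 genes tested in both species, with called genes in orange and the 3 members as diamonds. XLOC_021890 (2.19 and 3.40) and XLOC_021891 (4.16 and 5.41) lie in the upper right with FRD3b, sulfate transporter 3,5 and the malate channel Cs6g12780, and Cs3g22510 lies near the centre.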

How the data were processed

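RNA of root tips was sequenced in 8 libraries, 2 for each of 4 groups. As the paper's methods and the submitters' processing notes state, the authors removed poor reads, removed ribosomal RNA reads with Bowtie, mapped the rest to the C. sinensis genome with TopHat2, assembled transcripts with Cufflinks and ran edgeR 3.0.0 (R 2.1.5). The deposited values are FPKM per gene and library, made by the authors. The genome build and the tool versions other than those above were not given in the sources used here.

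The genes were found by the words of their description, and the genes and lists were chosen with earlier results of these data known. The plan named a count test first, but the files hold FPKM, so limma 3.58.1 (R 4.3.3) with a trend was used on log2(FPKM + 0.1), a scale that understates changes of low genes. A gene was tested where some group of the comparison averaged 1 FPKM or more. A species was fitted on 4 libraries, its own, and differences between species on all 8. P-values were adjusted over all genes tested (Benjamini-Hochberg). Calls needed an adjusted p no higher than 0.05 and, except for the difference of responses, a change of 1 or more in log2. The fits were tested on simulated data. Plots used matplotlib 3.10.9, and tables used scipy 1.17.1, numpy 2.4.6 and pandas 2.3.3 in Python 3.11.15. Depth per library was taken here only as a ratio, from values under 0.5 FPKM. The paper gives mapped reads per library, which were not used. Gene lengths were not used either, so no counting interval is given.

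Named list genes are, for each list, species and direction, the up to 2 called genes with the highest group mean, and all genes of lists with 5 or fewer tested. Of 13 lists, that of low-phosphate partners matched 0 genes. For each member the 5 described genes with the nearest profile were named. Rescaling, other filters and pseudocounts, no trend, a shared spread, the replicate block, leaving out each library and summing the assembled genes were tried. No reference sequence was used here.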

Additional observations from a re-analysis of the deposited data

Results flagged for a closer look

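The test of the difference between the species' responses to Al (limma, adjusted p at most 0.05, C. grandis minus C. sinensis on the log2 scale) picked out 1 of the 3 members and 17 of the named list genes. Among all genes tested 17.6% passed it. Many named list genes were picked for being called in a species, so their number cannot be set against that share. Of the 127 genes tested from all lists, named or not, 12 were higher and 13 lower, together 19.7%.

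XLOC_021890 rose more in C. grandis, by 1.21. The difference was also positive for the malate channel genes Cs5g01700 (1.97) and Cs5g31410 (2.55), the MATE gene Cs3g16650 (1.63), FRD3b Cs7g01770 (1.13), the Nramp gene Cs3g19960 (1.08), CBL10 Cs1g18400 (1.57), potassium transporter 11 Cs2g11370 (1.56) and the MAPKKK1-like orange1.1t03798 (1.51). It was negative for the malate channel Cs6g12750 (-4.23), the MATE genes Cs1g26350 (-1.99) and Cs9g16870 (-1.50), Nramp6 XLOC_029822 (-1.47), the polygalacturonase-inhibiting Cs7g01980 (-2.05), NADP-malic enzyme 4 Cs4g19200 (-1.42), the sulfate transporter 3.1-like Cs5g30850 (-2.999), the MAPKKK1-like Cs1g22540 (-3.03) and the C2H2 gene Cs3g15900 (-0.94). The values of Cs6g12750 are near the lower end of the scale, so its difference depends on the pseudocount. In C. grandis it had 1.01 and 0.871 FPKM in control roots and 0.538 and 0.0838 FPKM in +Al roots. XLOC_021891 had a difference of 1.25 and did not pass (adjusted p = 0.057).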

How the results depend on the processing

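Of 207 alternative values of the main results, 189 kept their direction and their side of the threshold. Some of them could not turn. Differences in control roots kept their value in fits without a +Al library, and those in +Al roots without a control library. The sum of the assembled genes was mostly entered under both of them. Taken singly, XLOC_021890 rose by 1.54 to 2.29 on the log2 scale in C. sinensis, with 3.04 to 3.56 for C. grandis. XLOC_021891 rose by 2.51 to 4.58 and by 4.46 to 5.62. Their sum rose by 3.08 and 4.25. These rises stayed called in all alternatives run.

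The change of Cs3g22510 in C. grandis turned to 0.056 without C. grandis +Al replicate 1 (-0.48 to 0.056 over the fits that leave out 1 library). Its difference of responses ran from -0.29 to 0.25 and its species difference in +Al roots from -0.45 to 0.082 over such fits. None of the reversed values was past the threshold. The larger response of XLOC_021890 in C. grandis lost its call with the replicate block (1.21, adjusted p = 0.056) and without 6 of the 8 libraries (range 1.05 to 1.37). It kept the call without either C. grandis +Al library. That of XLOC_021891 gained a call after rescaling (1.26, adjusted p = 0.013), with a pseudocount of 1 (1.95, 0.0026), with no trend (1.25, 0.045), as the sum with XLOC_021890 (1.17, 0.023) and without C. grandis +Al replicate 1 (1.45, 0.029). It was 0.97 (0.15) with a pseudocount of 0.01 and ran from 1.04 to 1.45 without 1 library. The call of XLOC_021890 in control roots was lost with a pseudocount of 1 (0.92, adjusted p = 0.0062). The cause was not tested. A lone replicate is assumed to vary like the others.

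Replicate numbers are only shared names: deviations of same-numbered libraries had Pearson's r of -0.048 to 0.066 over 20158 genes. The block changed no other member's call. Counts of all genes called higher and lower ranged from 581 to 947 (main 855) and 544 to 862 (778) in C. sinensis, from 434 to 971 (972) and 772 to 1369 (1354) in C. grandis, and from 318 to 4069 (1263) and 843 to 4318 (2279) for the difference of responses, where rescaling gave 2847 and 3190. In control roots they ranged from 804 to 1455 (1254) and 1228 to 2328 (2022). Called genes of all 12 lists ranged from 8 to 13 higher (13) and 3 to 7 lower (6) in C. sinensis, 6 to 9 (9) and 4 to 10 (9) in C. grandis, and 2 to 35 (12) and 4 to 25 (13) for the difference. A mean of at least 5 FPKM leaves XLOC_021890 untested in C. sinensis and in control roots.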
